A study of Ascaris suum with 12 samples.

Results

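The 127 genes described here are those of the Ascaris suum germline transcriptome whose transcripts are named for acyl-CoA, acetyl-CoA, enoyl-CoA or fatty acid metabolism. They were found by those words in the annotation, whatever their expression, among 18025 genes, and 405 of their 496 transcripts carry such a name. The worms were adults of a North American wild-type strain, taken from pig intestines and given no treatment, and their germlines were cut into 10 regions, each sequenced as 1 library. The male germline gave the mitotic region, spermatogenesis, the post-meiotic region, the seminal vesicle and spermatids, and the female germline gave its own mitotic region, pachytene in an early and a late piece, diplotene and the oocyte. A region is a piece of dissected tissue, and the sources used here do not say how many worms were pooled. Values are read as RPKM, in which reads are scaled to transcript length and to the mapped reads of the library, although no label or header names the unit. Each gene is represented by its transcript with the highest mean of log2(RPKM + 1) over the 10 regions. With 1 library per region no difference has a replicate check and no p-value is given, so a gene is called higher or lower by size alone, at 4-fold on RPKM + 1 where the larger of both values reaches 10 RPKM. Fewer cells of a type and less RNA per cell cannot be told apart in such tissue.

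Fatty acids enter metabolism once a ligase has joined them to coenzyme A. In mitochondria, beta-oxidation then shortens the chain through an acyl-CoA dehydrogenase, an enoyl-CoA hydratase, a hydroxyacyl-CoA dehydrogenase and a thiolase, releasing acetyl-CoA. Acetyl-CoA carboxylase and fatty acid synthase build new chains, which elongases and desaturases modify in the endoplasmic reticulum. Adult Ascaris muscle runs part of beta-oxidation backwards and excretes short branched-chain fatty acids as end products of anaerobic energy metabolism. Ascaris eggs hold stores of lipid that the embryo draws on.

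The libraries differed in ways that touch every value below. Between 8.10% and 15.7% of transcripts were listed at 0 in 9 libraries, and 25.5% in the seminal vesicle. The 16 major sperm protein genes, markers of the male germline, summed to 19988.2 RPKM in the male mitotic region, 48926.5 in spermatogenesis, 35789.3 after meiosis, 509.2 in the seminal vesicle and 4162.8 in spermatids, against 55.9 to 125.8 in the female regions. The 17 chondroitin proteoglycan genes, which name eggshell components, summed to 4842.5 RPKM or more in every female region and to 1763.3 or less in every male region. Genes named for vitellogenin, the yolk protein made in the intestine, were at 1.5 RPKM or less in all 10 libraries. Muscle markers (44 genes) summed to 108.9 to 1960.1 RPKM and neuronal markers (80 genes) to 106.3 to 359.7 RPKM. Rescaling the libraries by median ratios used log2 factors from -1.20 for spermatogenesis to 1.04 for the first female library, and levels are printed as deposited unless said otherwise.

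The median level of the fatty acid and acyl-CoA genes lay further above that of all genes in the early female germline than in the male. It was 6.2 RPKM in the female mitotic region, where that of all genes was 2.3, and 4.0 in the male mitotic region, where that of all genes was 3.2. Rescaling moves both medians of a library alike. In early pachytene 54 of the 127 reached 10 RPKM (42.5%, against 27.2% of all genes), in late pachytene 52 and in the female mitotic region 49 (38.6%, against 30.0%). The male regions had 34, 21, 17, 14 and 16 in order from the mitotic region to spermatids. These were 26.8%, 16.5%, 13.4%, 11.0% and 12.6%, against 30.2%, 18.3%, 17.2%, 11.8% and 13.5% of all genes. All genes thus fell in much the same way. With rescaled libraries early pachytene had 39 (30.7%, against 20.5%), late pachytene 41 (32.3%, against 20.7%) and the female mitotic region 32 (25.2%, against 18.4%). Spermatogenesis, at 36 (28.3%, against 27.9% of all genes), then stood above the female mitotic region. In all, 77 reached 10 RPKM somewhere, 50 did not, and 16 of these 50 stayed under 1 RPKM in every region.

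**Figure D1:**
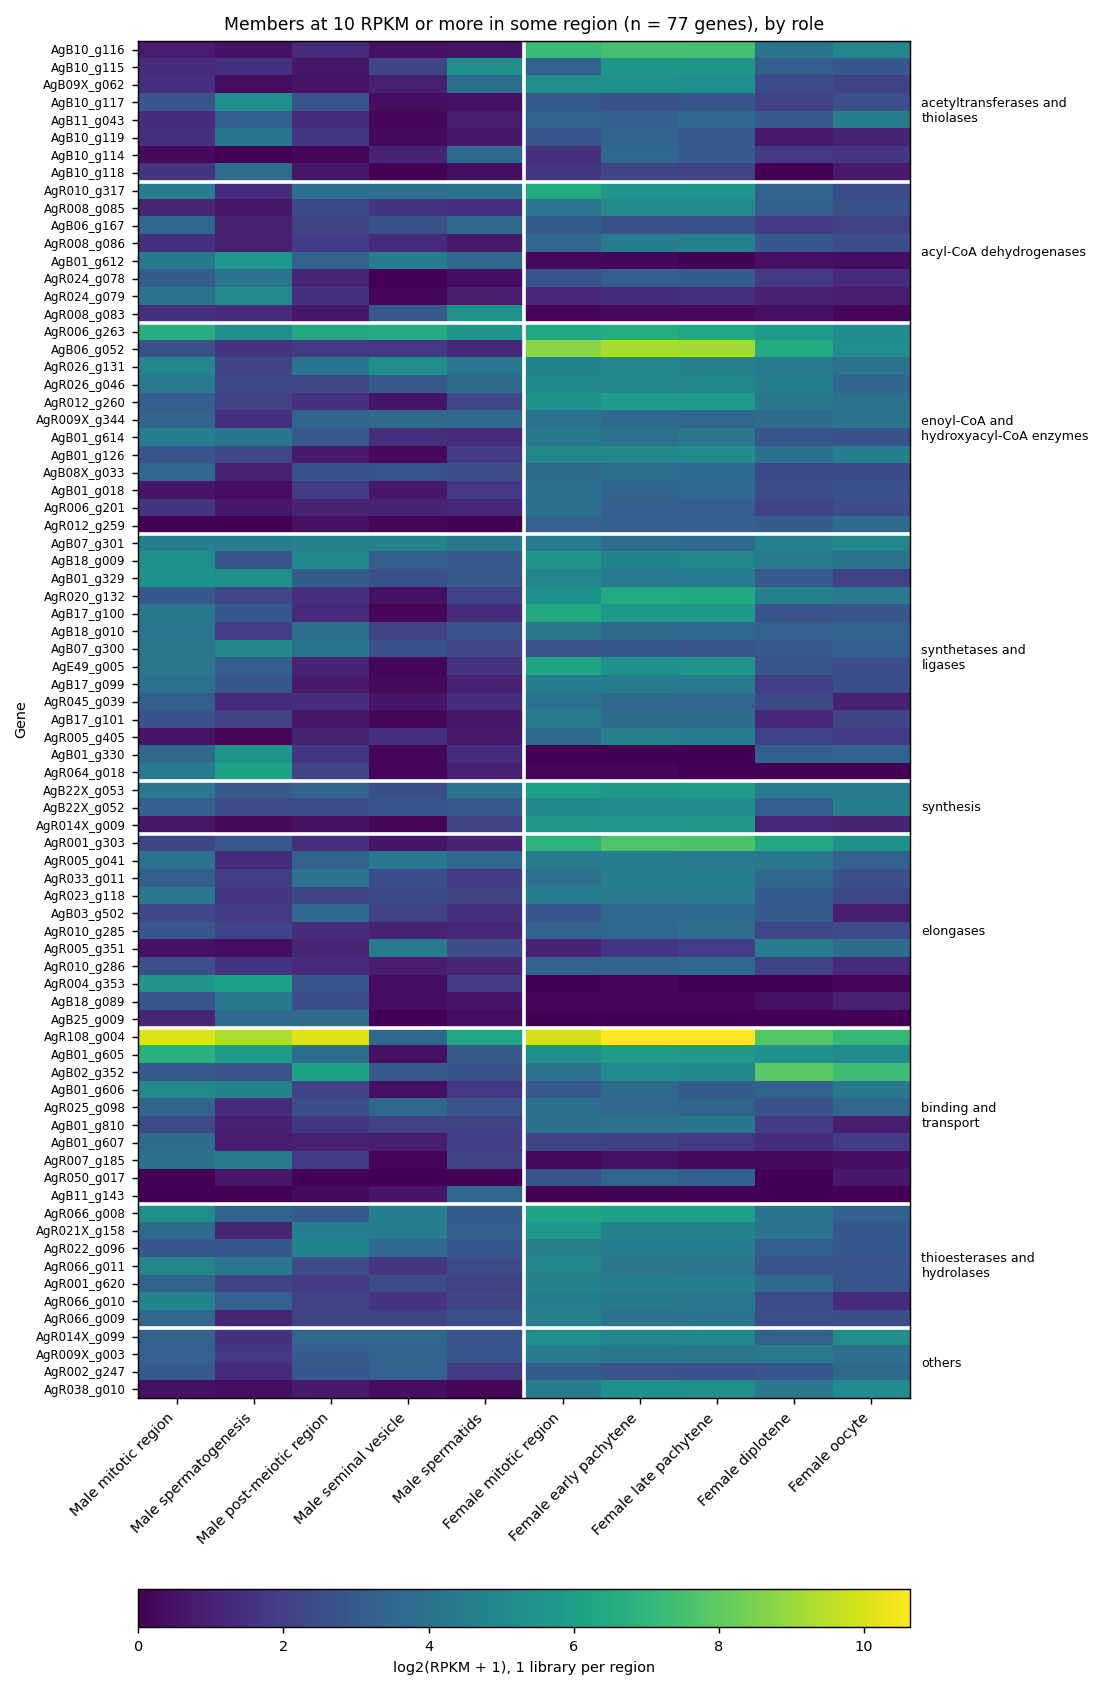
Levels of the 77 fatty acid and acyl-CoA genes at 10 RPKM or more in some region, as log2(RPKM + 1), with 1 column per library (5 male, then 5 female) and genes grouped by role and sorted by mean level. The brightest row is the fatty-acid and retinol-binding protein AgR108_g004, and AgB06_g052 is bright in the female columns alone, at 36.3 to 628.6 RPKM against 1.3 to 5.2 in the male.

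Of the 77, 49 had their highest value in a female region and 28 in a male one, a balance that rescaling turned to 37 and 40. Among all 8955 genes at 10 RPKM or more the female share as deposited was 53.3%, against 63.6% of the 77. With rescaled libraries it was 41.7% of all genes, against the 37 of the 77. The female mitotic region held the highest value of 18 genes (23.4%, against 26.3% of all genes), early pachytene that of 15 (19.5%, against 10.3%) and spermatogenesis that of 13 (16.9%, against 20.4%). With rescaled libraries these became 6, 9 and 22 of the 77, where the shares of all genes were 7.76%, 8.45% and 33.3%. Spermatogenesis then held the most, as it did for all genes. Averaged over 5 regions on the log2(RPKM + 1) scale, 92 of the 127 (72.4%) were lower in the male and 34 higher, where 59.6% of all genes were lower. The median difference was -0.68 for them and -0.18 for all genes, or -0.19 and 0.02 with rescaled libraries.

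Among the 127, the largest difference between the mitotic regions as deposited, and the second to AgB06_g052 with rescaled libraries, was that of the acetyl-CoA acetyltransferase A gene AgB10_g116 (scaffold AgB10, positions 1770530 to 1781747, minus strand, 11 exons). Acetyl-CoA acetyltransferase is a thiolase that splits acetoacetyl-CoA to acetyl-CoA or joins acetyl-CoA the other way. Along the male germline it was at 0.8, 0.4, 1.5, 0.4 and 0.5 RPKM, from the mitotic region to spermatids. Along the female germline it was at 144.0, 176.8, 173.4, 16.1 and 28.3 RPKM, from the mitotic region to the oocyte. The lowest female value thus lay above every male value, and the female germline itself split into 3 high early regions and 2 lower late ones. In the mitotic regions the male value was lower by 80.6-fold on RPKM + 1, a log2 difference of -6.33, or -5.60 with rescaled libraries. Both of its transcripts gave this pattern, the second at 143.0 RPKM in the female mitotic region and 0.7 in the male.

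Among all 6967 other genes with a descriptive name and a value of 10 RPKM or more, 3 had the profile most like AgB10_g116 by Pearson r on the log2(RPKM + 1) scale over the 10 regions. AgB01_g337, named putative methylmalonyl, had r = 0.997, with values of 0.1 to 0.9 RPKM in the male and 9.8 to 91.5 in the female. The E3 ubiquitin-protein ligase march2 gene AgR032_g001 had r = 0.996 and so did gut esterase 1 (AgR001_g430). The nearest gene of fatty acid metabolism was AgB06_g052, at r = 0.983 and rank 34. The points share their libraries, so these values only describe likeness.

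AgB10_g116 lies in a row of 6 consecutively numbered genes of the same name, AgB10_g114 to AgB10_g119, which span 38.9 kb, and its neighbours differ from it. AgB10_g115 was at 1.5, 1.9, 0.6, 3.7 and 38.5 RPKM along the male germline and at 9.2, 49.0, 48.2, 8.3 and 6.3 along the female. AgB10_g114 followed it at a lower level, with 11.4 RPKM in spermatids and 11.2 in early pachytene (r = 0.976 between both genes over the 10 regions). AgB10_g115 was therefore high in both pachytene libraries and in spermatids, where AgB10_g116 was at 0.5. With rescaled libraries AgB10_g114 was at 15.8 in spermatids, 7.41 in early pachytene and 4.82 in late pachytene, against 2.97 or less elsewhere. On the other side, AgB10_g117 was at 5.9, 35.6, 5.7, 0.3 and 0.4 RPKM in the male and 3.2 to 7.1 in the female. AgB10_g118 and AgB10_g119 were also highest in spermatogenesis, at 13.1 and 16.3 RPKM, and r between them was 0.939. The row thus held a female pattern, a pachytene and spermatid pattern and a spermatogenesis pattern within neighbouring genes of 1 name.

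Transcripts of AgB10_g117 did not all follow the spermatogenesis pattern. AgB10_g117_t07 was at 0.5 RPKM in the male mitotic region, 4.1 in spermatogenesis and 8.9 in spermatids, and AgB10_g117_t01 at 0.9, 7.0 and 6.5. The transcript used here, AgB10_g117_t06 (722 nt), was at 0.4 in spermatids, so the level of this gene in spermatids differs with the transcript. Reads of close copies may be split between these genes by the counting, which was not tested, and the spans of AgB10_g114, AgB10_g115, AgB10_g118 and AgB10_g119 each overlap another gene. The 4 other genes of this name lie apart. AgB09X_g062, on an X scaffold, was at 38.3, 42.2 and 39.5 RPKM in the first 3 female regions, 4.6 and 3.1 in the last 2, and 13.2 in spermatids against 0.3 to 1.7 in the other 4 male regions. AgB10_g104 peaked at 8.7 RPKM, AgR076X_g002 at 3.3 and AgB10_g121 at 1.4. The remaining thiolase, the 3-ketoacyl-CoA thiolase AgB11_g043 of the last step of beta-oxidation, was highest in the oocyte at 21.1 RPKM.

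**Figure D2:**
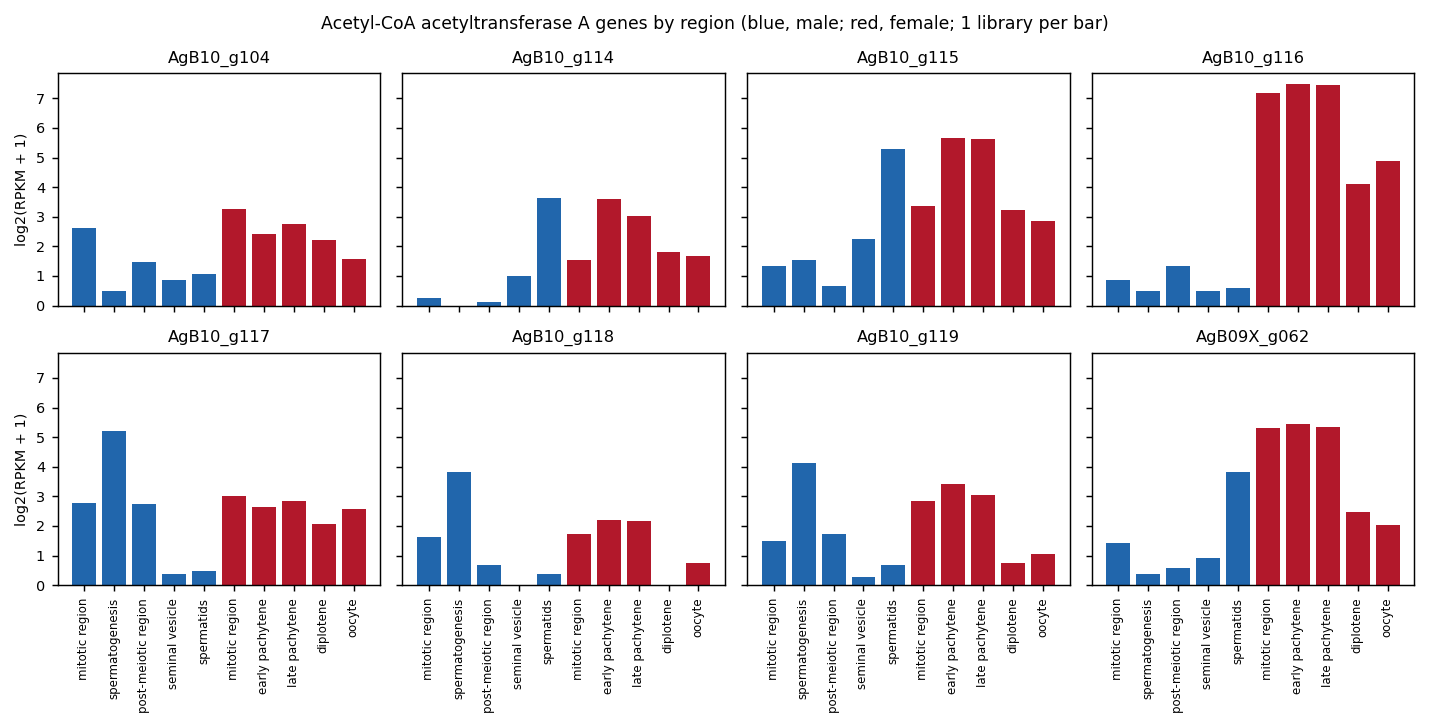
Level of 8 acetyl-CoA acetyltransferase A genes in each of the 10 regions as log2(RPKM + 1), 1 bar per library, with 5 male regions in blue and 5 female regions in red. AgB10_g116 is high in all 5 female regions, AgB10_g115 in pachytene and spermatids (49.0 and 38.5 RPKM), and AgB10_g117 in spermatogenesis (35.6 RPKM).

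Between the mitotic regions, 16 of the 127 genes (12.6%) were at least 4-fold lower in the male, where 4.68% of all genes were, and 7 (5.51%) were at least 4-fold higher, where 6.92% of all genes were. The share lower in the male was thus above that of all genes, and the share higher in the male was near that of all genes. With rescaled libraries 7 and 4 calls were left, against 2.49% and 5.63% of all genes. The 7 genes lower in the male after rescaling were AgB10_g116, AgB06_g052, AgR014X_g009, AgR001_g303, AgR038_g010, AgB09X_g062 and AgR020_g132. The 4 higher ones were AgR004_g353, AgR064_g018, AgB01_g612 and AgB01_g606. The highest transcript with a matching annotation, an alternative chosen after seeing the data, was also tried on values as deposited. It gave 5 genes higher in the male, against 6.91% of all genes, and 16 lower, against 4.68%. Only 59 of the 127 had 10 RPKM in either mitotic region, so the other 68 could not be called. The median difference over all 127 was -0.12, against 0.00 over all genes.

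**Figure D3:**
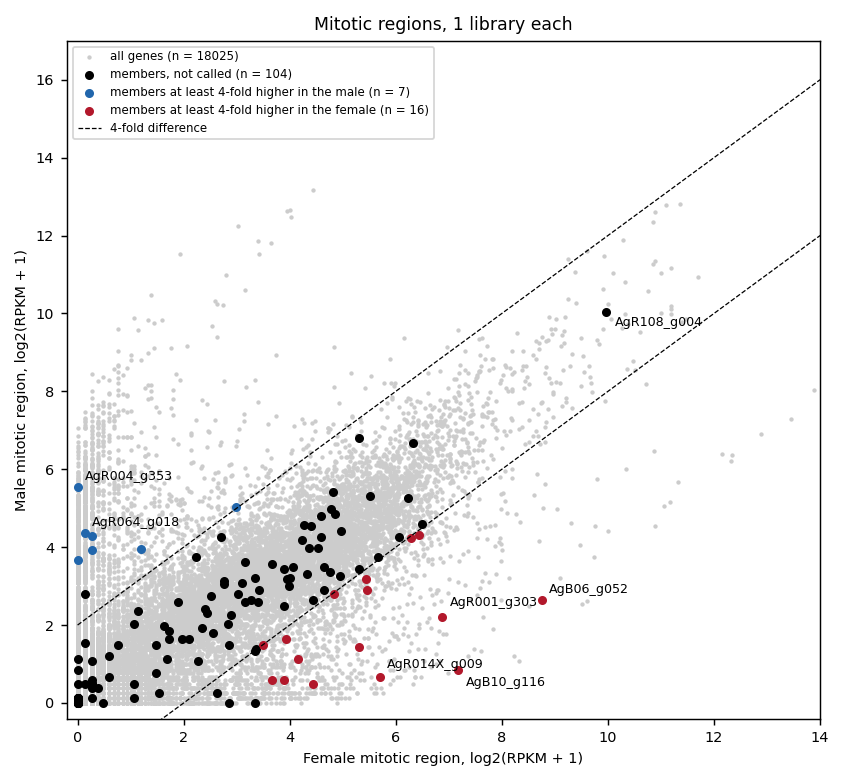
Level in the male mitotic region against the female mitotic region, both as log2(RPKM + 1) with 1 library each, for all 18025 genes (grey) and the 127 genes of acyl-CoA and fatty acid metabolism. The 16 genes at least 4-fold lower in the male (red) lie on or below the lower dashed line and the 7 at least 4-fold higher (blue) on or above the upper one, while AgR108_g004 is high in both, with male and female values of 1052.1 and 991.4 RPKM.

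The 7 genes higher in the male mitotic region were at 24.1% to 117% of their spermatogenesis value there, with a median of 46.2%. Major sperm protein genes at 10 RPKM or more in spermatogenesis (15 genes) were at a median of 41.8% of their spermatogenesis value in the same library, from 7.32% to 87.3%. How far RNA of later male germ cells enters these 7 values was not tested.

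Over the whole germline, 7 genes (5.51%) had every female value at least 2-fold above every male value on RPKM + 1, against 2.51% of all genes. The opposite held for 1 gene (0.787%), against 0.621% of all genes. These regions are different tissues and not replicates, so the gap describes 10 libraries. With any gap counted, 18 genes were higher in the female (14.2%, against 7.83% of all genes) and 3 in the male (2.36%, against 3.57%). For the 2-fold gap, rescaling left 7 higher in the female, against 2.058% of all genes, and 1 in the male, against 1.098%. The male share of 0.787% was then below that of all genes. Of the 7 female ones, 6 were the same. Trans-2-enoyl-CoA reductase 2 AgB01_g126 was lost, with its gap at 0.51 in place of 1.09 on the log2 scale. Without the seminal vesicle, 3 genes were higher in the male, against 3.73% of all genes.

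**Figure D4:**
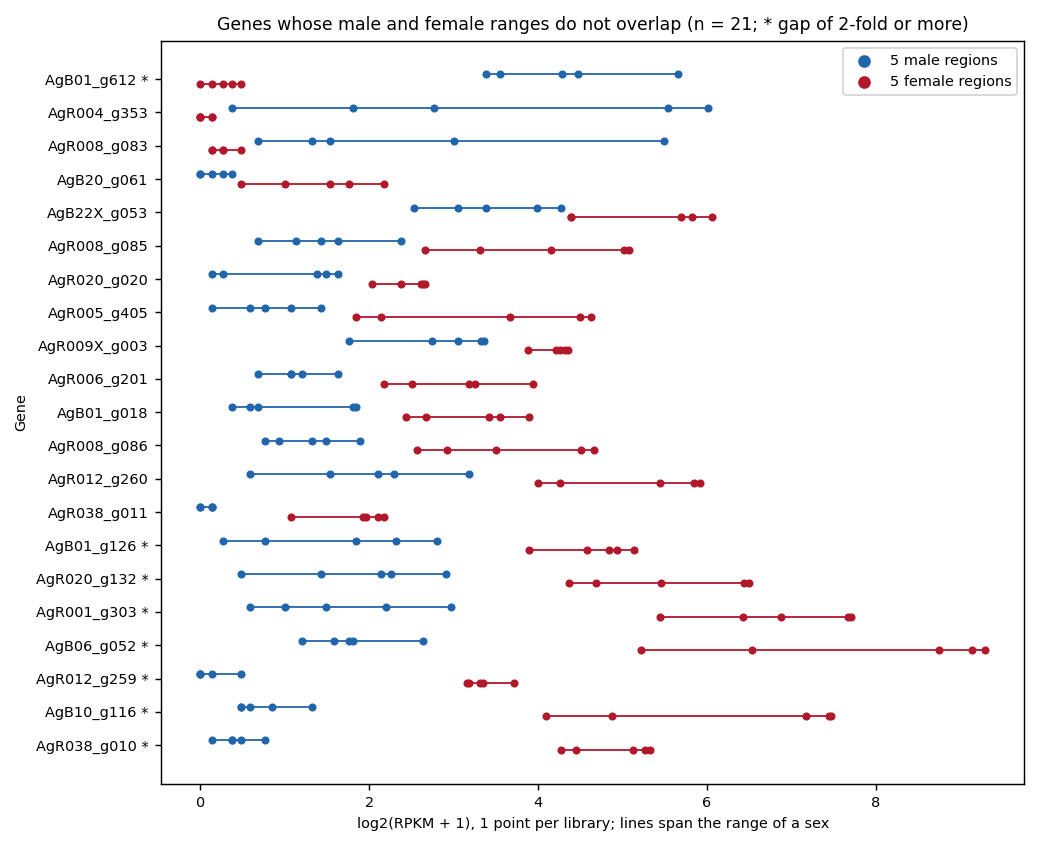
Levels as log2(RPKM + 1) of the 21 genes whose male and female ranges do not overlap, with 1 point per library, lines that span the 5 regions of a sex and an asterisk where the gap is 2-fold or more on RPKM + 1. In 18 genes the female range (red) lies above the male one (blue), and in AgB01_g612, AgR004_g353 and AgR008_g083 below it.

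The widest female gap as deposited was that of AgR038_g010, whose transcript used is named omega-3 fatty acid endoplasmic reticulum, without an enzyme word, while 3 of its other transcripts are named omega-6 fatty acid desaturase. In the male it was at 0.1 to 0.7 RPKM, and in the female at 20.8, 39.1, 37.4, 18.3 and 34.0 along the germline, a gap of 3.50 on the log2 scale. With rescaled libraries its gap was 2.63, below those of AgB06_g052 (3.16) and AgB10_g116 (2.84). Its neighbour AgR038_g011, an omega-6 fatty acid desaturase, an enzyme that places double bonds in fatty acid chains, had the same direction at a low level, with 0.1 RPKM or less in the male and 1.1 to 3.5 in the female. The acyl-CoA desaturase AgB20_g061 reached 3.5 RPKM at most.

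Among the enoyl-CoA and hydroxyacyl-CoA enzymes (17 genes), which include the hydratases of beta-oxidation and the dehydratases and reductases of chain elongation, 5 were lower and 0 higher in the male mitotic region by the 4-fold rule, where 4.68% and 6.92% of all genes were. Rescaling left AgB06_g052 as the 1 lower gene, against 2.49% of all genes. AgB06_g052, called enoyl-CoA hydratase domain-containing protein 2 in some transcripts and methylglutaconyl in the one used, was at 5.2, 2.0, 2.5, 2.4 and 1.3 RPKM in the male. In the female it was at 429.6, 628.6, 565.8, 91.8 and 36.3. Like AgB10_g116 it was high in the first 3 female regions and lower in the last 2, with no overlap between the sexes. Trans-2-enoyl-CoA reductase 2 had 3 genes, and all 3 lay higher in the female: AgR012_g259 at 7.9 to 12.1 RPKM against 0.0 to 0.4, AgR012_g260 at 15.0 to 59.4 against 0.5 to 8.1, and AgB01_g126 at 13.9 to 34.3 against 0.2 to 6.0. Enoyl-CoA hydratase AgB01_g018 was at 13.9 RPKM in the female mitotic region and 0.5 in the male.

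In contrast, trans-2,3-enoyl-CoA reductase AgR006_g263, which catalyses the last step of chain elongation, was at 36.2 to 101.1 RPKM in the male and 34.2 to 95.0 in the female. Its ranges overlapped almost wholly as deposited, and with rescaled libraries only from 59.2 to 64.1. Enoyl-CoA hydratase genes AgR020_g234, AgR020_g235, AgR020_g237 and AgR020_g238 were low throughout, at 5.0 RPKM or less.

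Acyl-CoA dehydrogenases take the first oxidation step, and different genes of this group were high in each sex. By name the group held 11 genes, 2 of them 3-hydroxyacyl-CoA dehydrogenases, which act at a later step. AgR008_g085 and AgR008_g086, medium-chain specific acyl-CoA dehydrogenases, were at 0.6 to 4.2 and 0.7 to 2.7 RPKM in the male. In the female they were at 5.3 to 32.7 and 4.9 to 24.3. Their neighbour AgR008_g083 went the other way, at 1.9, 1.5, 0.6, 7.0 and 43.9 RPKM along the male germline and 0.4 or less in the female. The transcript used of that gene is named 2-methyl branched-chain enoyl CoA reductase isoform I, the enzyme that in Ascaris muscle works in the backward direction of this pathway, and its other transcript is named medium-chain specific acyl-CoA dehydrogenase 10. AgR024_g078 and AgR024_g079, of the short/branched chain kind, were both highest in spermatogenesis, at 16.2 and 31.2 RPKM. Acyl-CoA dehydrogenase family member 9 (AgR010_g317), known in mammals as an assembly factor of respiratory complex I, was highest in the female mitotic region at 88.6 RPKM and was at 4.5 in the oocyte.

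AgB01_g612 was the gene with every male value above every female one by the 2-fold rule. Its name, acyl-CoA dehydrogenase family member 10, comes from a transcript other than the one used, AgB01_g612_t07. The name of AgB01_g612_t07 does not match the search words. The gene was at 18.5, 49.5, 9.4, 21.3 and 10.7 RPKM in the male and at 0.0 to 0.4 in the female for AgB01_g612_t07. Its transcripts disagree on the male regions, since AgB01_g612_t01 was at 0.4, 0.4, 4.0, 18.1 and 9.1 and AgB01_g612_t09, which is named hypothetical protein, at 27.9, 75.3, 8.7, 0.8 and 3.2. Both were at 0.5 or less in every female region. With the highest transcript that carries a matching annotation, or the one marked best expressed by the authors, no gene was left with the 2-fold gap toward the male.

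Ligases and synthetases, which activate fatty acids, were the largest group with 32 genes, of which 14 reached 10 RPKM in some region. In the mitotic regions 4 were lower in the male and 2 higher, where 4.68% and 6.92% of all genes were. Rescaling left 1 lower (AgR020_g132) and 1 higher (AgR064_g018), against all-gene shares of 2.49% and 5.63%. Long-chain-fatty-acid-CoA ligase 6 (AgR064_g018) was at 19.6, 68.4, 3.6, 0.1 and 0.9 RPKM in the male and 0.1 or less in the female. Ligase 5 gene AgB01_g330 was at 11.8 and 49.0 RPKM in the first 2 male regions, 0.0 in the female mitotic region and both pachytene libraries, and 8.9 and 9.0 in diplotene and the oocyte. AgR005_g405, a ligase 1, went the opposite way, at 11.7, 23.8 and 21.5 RPKM in the first 3 female regions and 0.1 to 1.7 in the male. Acyl-CoA synthetase family member 2 gene AgR020_g132 had its female values, 19.6 to 89.7 RPKM, above all male values, 0.4 to 6.5. Others differed less between the sexes. Ligase 4 gene AgB18_g009 was at 44.6 RPKM in the mitotic region of the female, against 39.1 for the male, and ligase 5 gene AgB07_g301 was at 17.7 to 25.9 in the male and 11.4 to 28.2 in the female.

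All 4 genes of the 127 that the authors mark as eliminated, meaning lost from somatic cells in programmed DNA elimination, were ligase 5 genes. That is 3.15% of the 127, against 5.14% of all genes. They are AgE49_g005 and the row AgB17_g099, AgB17_g100 and AgB17_g101. AgE49_g005 was at 17.7, 8.2, 1.1, 0.1 and 2.1 RPKM in the male and 77.5, 38.9, 44.1, 6.0 and 4.8 in the female. AgB17_g100 was at 18.9, 6.6, 1.5, 0.1 and 1.6 in the male and 85.9, 52.2, 52.9, 5.5 and 6.3 in the female. All 4 had their highest value in the female mitotic region as deposited, and their highest male value in the mitotic region. With rescaled libraries spermatogenesis held the highest male value of all 4 (18.8 against 10.4 in the mitotic region for AgE49_g005), and for AgB17_g099 the highest of all 10. The likeness of their sequences was not examined, so reads may be shared between them.

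**Figure D5:**
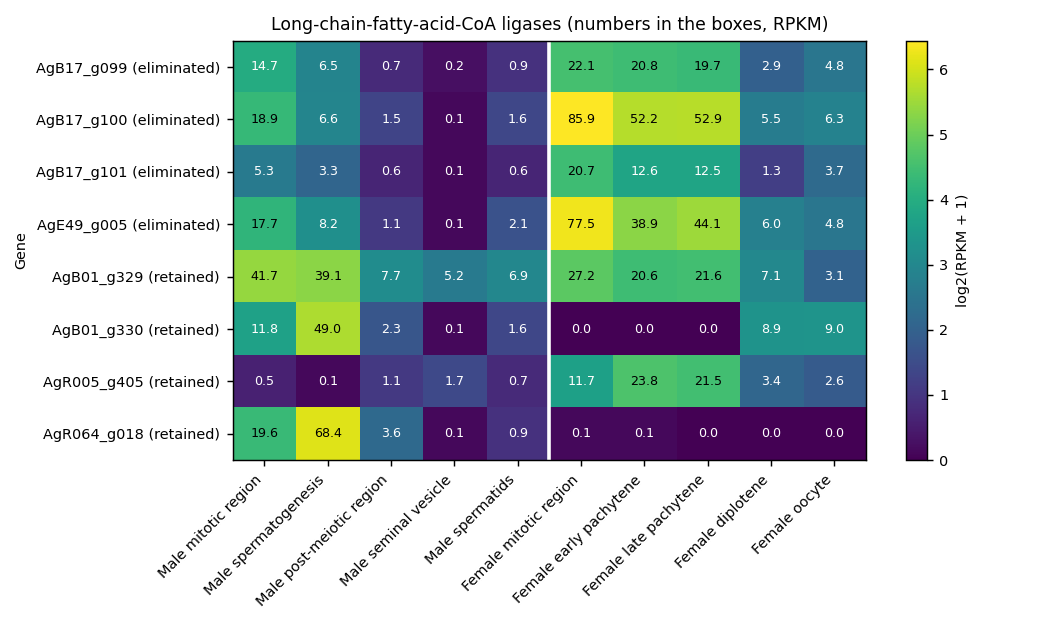
Levels of 8 long-chain-fatty-acid-CoA ligase genes in the 10 regions, coloured by log2(RPKM + 1) with the RPKM printed in each box, for the 4 eliminated genes and 4 retained ones. The retained ones were called between the mitotic regions, or lie next to such a gene and reach 10 RPKM in some region. As deposited, the eliminated genes are highest in the female mitotic region (20.7 to 85.9 RPKM). Of the retained ones, AgB01_g330 and AgR064_g018 are highest in spermatogenesis (49.0 and 68.4 RPKM), AgB01_g329 in the male mitotic region and AgR005_g405 in female early pachytene.

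Of the genes that build new chains, fatty acid synthase AgR014X_g009, on an X scaffold, was at 0.6, 0.2, 0.4, 0.1 and 3.3 RPKM in the male. Its female values were 50.9, 50.4, 51.3, 1.3 and 1.1, so it was flat over the first 3 regions and near the male level in the last 2. Acetyl-CoA carboxylase 2, which makes the malonyl-CoA that the synthase uses, was less divided. AgB22X_g053 was at 4.8 to 18.3 RPKM in the male and 20.0 to 65.8 in the female, and AgB22X_g052 at 4.6 to 8.6 and 8.2 to 33.8.

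Elongases, which add carbon to existing chains, held a gene for each sex under 1 name. Fatty acid elongation protein 3 gene AgR001_g303 was at 3.6, 6.8, 1.8, 0.5 and 1.0 RPKM in the male and 116.5, 208.1, 203.9, 85.0 and 42.4 in the female. AgR004_g353, named alike, was at 45.6, 63.8, 5.8, 0.3 and 2.5 in the male and at 0.1 or less in the female. Each was therefore near 0 or far lower in the germline where the other was high. AgR005_g041, of the same name, had ranges that overlapped, at 1.6 to 18 RPKM in the male and 9.0 to 22.5 in the female. The elo-8 gene AgR005_g351 had yet another course, with 19.7 RPKM in the seminal vesicle, 21.9 in diplotene, 12.7 in the oocyte and 4.7 or less elsewhere.

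The most abundant gene was AgR108_g004, fatty-acid and retinol-binding protein 1, of a family of lipid-binding proteins known from nematodes. It was at 1052.1, 636.9, 1146.5, 11.1 and 81.0 RPKM in the male and 991.4, 1583.0, 1539.4, 219.1 and 134.9 in the female. Both germlines thus ended at lower values than they began. Its namesake AgB11_g143 was at 10.4 RPKM in spermatids and 0.5 or less in the other 9 regions. Fatty acid-binding protein 9 gene AgB02_g352 was highest in diplotene and the oocyte, at 242.0 and 159.7 RPKM, against 14.9 to 31.7 in the earlier female regions and 68.9 in the post-meiotic region. That locus also carries a transcript named for pyruvate dehydrogenase (AgB02_g352_t03), which was at 4.2 RPKM at most.

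Genes of small fatty acid-binding proteins lie in a row of 5 on scaffold AgB01, and the 3 that reached 10 RPKM were highest in the male mitotic region as deposited. The other genes, AgB01_g603 and AgB01_g604, were near 0, at 0.404 and 0.230 at most with rescaled libraries. With rescaled libraries AgB01_g605 and AgB01_g606 were highest in spermatogenesis, at 139 and 61.7 against 64.9 and 18.5 in the male mitotic region. AgB01_g606, named AS-P18, a secreted protein first described from the fluid around the Ascaris embryo, was at 31.6, 26.9, 3.6, 0.4 and 2.5 RPKM in the male and 6.9 to 18.6 in the female. AgB01_g605 was at 111.0, 60.4, 13.3, 0.4 and 7.1 in the male and 31.6 to 57.2 in the female, and 1 of its neighbours, AgB01_g607, at 12.4 in the male mitotic region and 3.7 or less elsewhere. Acyl-CoA-binding protein AgR007_g185, a carrier of acyl-CoA in the cytosol, was at 14.2 and 20.2 RPKM in the first 2 male regions and 0.4 or less in the female.

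Thioesterases and hydrolases (8 genes) break acyl bonds. Between the mitotic regions 0 of them were called, where 4.68% of all genes were lower and 6.92% higher in the male. With 8 genes such shares give few calls, so the 0 does not set this role apart. Fatty-acid amide hydrolase 2 gene AgR066_g008 was at 73.6 RPKM in the mitotic region of the female, against 37.3 for the male. Fatty-acid amide hydrolase 1 gene AgR021X_g158 was at 49.5 and 12.5 RPKM. Of the 5 remaining genes, fatty acyl-CoA reductase AgR014X_g099, which makes fatty alcohols, was at 1.9 to 11.2 RPKM in the male and 9.0 to 38.7 in the female. Fatty acid 2-hydroxylase AgR009X_g003 was at 2.4 to 9.3 and 13.7 to 19.5, ranges that touch nowhere as deposited but overlap with rescaled libraries.

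From the male mitotic region to spermatids, 18 of the 127 genes (14.2%) were lower and 5 (3.94%) higher, where 12.5% and 2.55% of all genes were. Both shares are near those of all genes, and rescaling left 6 lower, against 3.69% of all genes, and 5 higher, against 3.98%. The 5 higher ones were AgB10_g115, AgR008_g083, AgB11_g143, AgB10_g114 and AgB09X_g062, by 5.26-fold to 15.8-fold on RPKM + 1. In AgR008_g083 and AgB10_g115 the seminal vesicle was at 7.0 and 3.7 RPKM, between the post-meiotic region and spermatids. In the same 2 libraries cuticle markers (210 genes named for collagen or cuticlin) summed to 26127.8 RPKM in the seminal vesicle and 21842 in spermatids, against 523.7 in the male mitotic region. Of those, 11 and 30 were at 10 RPKM or more, 98 and 81 were at 0, and the highest was AgB01_g561 in both. Their part in the result was not tested. The lower genes included AgB01_g605 (13.8-fold), AgR004_g353 (13.3-fold), AgR108_g004 (12.8-fold), AgR064_g018 (10.8-fold) and 3-hydroxyacyl-CoA dehydratase 3 (AgB01_g614, 22.7 and 1.5 RPKM), a part of the elongation machinery.

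Several genes high early in the female germline were at lower values in diplotene than in late pachytene. Between these regions 14 of the 127 genes (11.0%) were lower and 2 (1.57%) higher, where 5.53% and 2.37% of all genes were. Rescaling left 5 lower (AgR014X_g009, AgB10_g116, AgB17_g100, AgB09X_g062 and AgR108_g004), against 1.73% of all genes, and 3 higher (AgB01_g330 in addition), against 3.42%. Fatty acid synthase AgR014X_g009 was lowest by fold, from 51.3 to 1.3 RPKM, a log2 difference of -4.51. The 2 higher genes were AgB02_g352, from 30.6 to 242.0, and elo-8 AgR005_g351, from 2.8 to 21.9. Both remained the higher ones in the oocyte, where AgR005_g351 was at 12.7.

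In the oocyte against the female mitotic region, 19 genes (15.0%) were lower and 2 (1.57%) higher, where 13.2% and 2.96% of all genes were. These shares are near those of all genes, and rescaling turned the counts to 6 and 6, against 3.25% and 6.39%. The 4 genes that rescaling added to the higher ones were AgB01_g330, AgB01_g606, AgB11_g043 and AgR038_g010. Those lower with either scaling were AgR014X_g009, AgR010_g317, AgE49_g005, AgB17_g100, AgB06_g052 and AgR066_g010. By role, the lower calls as deposited comprised 6 of 8 thioesterases and hydrolases, 5 of 32 ligases and synthetases and 2 of 11 acetyltransferases and thiolases, which rescaling turned to 1, 2 and 0. Fatty acid transport protein 4 gene AgB01_g810, a member of a family of membrane proteins that take up fatty acids, was at 13.8 RPKM in the female mitotic region, 16.4 in late pachytene and 0.8 in the oocyte.

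The genes share features that the choice by name did not use. Of the 127, 76 (59.8%) had a transcript with a spliced leader, the short exon that nematodes join to many messages, against 43.0% of all genes. Among genes at 10 RPKM or more the shares were 67.5% (52 of 77) and 56.3%. A cap start was marked in 16.5%, against 14.6% of all genes, and a cap start without a spliced leader in 7 genes (5.51%), against 6.80% of all genes. X scaffolds, those whose names end in X, held 12 (9.45%), against 18.2% of all genes.

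Of the 127 genes, 70 (55.1%) had a directly neighbouring gene number in the same list, and these formed 27 rows. In 12 rows at least 2 genes reached 10 RPKM, and in 8 of these all such genes had their highest value in the same sex, 3 in the male and 5 in the female. The other 4 rows mixed the sexes, and the split was also 8 and 4 with rescaled libraries. Some rows would share a sex even if neighbours were unrelated, and how many was not computed. The split therefore does not show that neighbours agree more often than other genes. The mixed rows were the acetyltransferases AgB10_g114 to AgB10_g119, the acyl-CoA dehydrogenases AgR008_g083 to AgR008_g086, the ligases AgB07_g300 and AgB07_g301, and the amide hydrolases AgR066_g008 to AgR066_g011. Many of these loci overlap others, since 58 of the 127 transcripts used lie within or across the span of another gene. Matching shares of all genes were not computed for such overlap or for neighbours of like name.

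A further 137 genes, found by names such as carnitine, lipase, propionyl-CoA or peroxisome in any of their transcripts, were also compared. Between the mitotic regions 11 (8.03%) were higher in the male and 10 (7.30%) lower, against 6.92% and 4.68% of all genes. The 2-fold gap toward the female was found in 5 (3.65%) and that toward the male in 0, against 2.51% and 0.621% of all genes. With rescaled libraries these counts were 9, 8, 7 and 1. The transcript used did not always carry such a name. AgR003_g075, named chondroitin proteoglycan 2, and AgR014X_g189, named homeobox protein, were among those lower in the male mitotic region. AgR003_g075 was also among those with the female gap as deposited, as were the neighbouring lipase genes AgB01_g170, AgB01_g171 and AgB01_g172. The examples here were chosen after their values were seen. Succinyl-CoA:3-ketoacid-coenzyme A transferase (AgB34_g004), which activates ketone bodies, was at 204.1 RPKM in the female mitotic region and 9.1 in the male. Carnitine O-palmitoyltransferase 2 (AgR031_g115), which hands fatty acids to coenzyme A inside mitochondria, was at 61.8 and 10.5, and a peroxisomal acyl-coenzyme A oxidase (AgR011_g065) at 47.8 and 6.8. Higher in the male were the carnitine acylcarnitine carrier AgB01_g333, at 18.7 against 0.1 in the mitotic regions and 69.8 in spermatogenesis, and the methylmalonyl-CoA epimerase AgE03_g012, at 176.8 against 0.1.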

How the data were processed

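Total RNA was depleted of ribosomal RNA with a kit for human, mouse and rat and made into libraries with a TotalScript kit, per the labels' protocols. Per the submitters' processing notes the tools included TopHat2 and Cufflinks, of unstated version. No source used here names a genome build, or says whether strand was used in counting. The authors deposited levels to 1 decimal for 61820 transcripts, which are read here as RPKM because the values are not whole, the column totals differ and Cufflinks writes such values, since no header or label names the unit or says whether reads or fragments were counted. The table came with marks for eliminated genes, spliced leader and cap starts and the best expressed transcript. Library depth is not stated in the table, so no counting interval is given. The 2 libraries of a mixed sample are not analysed here.

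The transcript with the highest mean of log2(RPKM + 1) stood for each gene, and in 11 of the 127 its name did not match the search words. The rule for named genes took AgB10_g116 and its namesakes, the 2 highest genes per role, up to 8 calls each way per comparison and the 3 genes most like AgB10_g116. A few further genes were named after their values were seen. Members, lists and rules were chosen with earlier results of these data known. Median-ratio rescaling used 15277 transcripts at 1 RPKM or more in every library. Each role followed the first matching word, so the acyl-CoA dehydrogenases include 3-hydroxyacyl-CoA dehydrogenases. The rules were run on simulated data with planted fold changes and an assumed noise. These libraries have no replicates to set that noise, so the run gives no error rate for the calls. Work was done in Python 3.11.15 with pandas 2.3.3 and numpy 2.4.6.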

Additional observations from a re-analysis of the deposited data

Results flagged for a closer look

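The acetyl-CoA acetyltransferase gene AgB09X_g062 was called in opposite directions along the germlines, higher in spermatids than in the male mitotic region by 2.39 on the log2(RPKM + 1) scale, and in the oocyte against the female mitotic region at -3.26. The difference between the sexes was not tested, since each region is 1 library, and with rescaled libraries the female difference was -1.92 and no longer called.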

How the results depend on the processing

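No paired analysis was possible because each region is 1 library and the labels give no replicate numbers. Of 90 recomputed counts, 72 stayed within 1.5 times the reported one, and the difference and gap of AgB10_g116 kept their direction and side of the threshold in all settings run, at -7.32 to -5.60 and 2.77 to 3.34. Rescaled libraries gave 4 genes higher and 7 lower in the male mitotic region, 6 lower in spermatids, 6 higher and 6 lower in the oocyte, and 5 lower in diplotene. A 2-fold threshold gave 27 lower in the male mitotic region, against 11.3% of all genes. It gave 36 lower and 4 higher in the oocyte, against 21.2% and 4.77%, and 35 lower in diplotene, against 15.8%. Genes higher in diplotene numbered 4 without the filter on low values and 4 with values summed per gene, against 3.84% and 3.52% of all genes. Over the 5 male and 5 female regions, any gap gave 3 higher in the male and 18 in the female. The count higher in the male was 2 with a pseudocount of 0.1, against 2.32% of all genes. It was 0 with the marked transcript and with the highest matching transcript, an alternative chosen after seeing the data. Leaving out each region in turn gave 1 to 3 higher in the male, against 0.627% to 3.73% of all genes, the 3 without the seminal vesicle. Those higher in the female numbered 7 to 9, against 2.52% to 4.16%. The causes were not tested. Values near 0.1 RPKM, the last decimal deposited, limit what can be said of low genes.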
